A study of Mus musculus with 6 samples.

Results

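The Hedgehog pathway genes Shh, Ptch1, Smo, Hhip, Gas1, Boc, Gli1, Gli2 and Gli3 were examined for H3K4me1 in the embryonic mouse whisker pad, where they stand for 9 of 21755 genes that code for proteins (chromosomes 1 to 19 and X). They were chosen by name, as the ligand, the receptors with their co-receptors and inhibitor, and the Gli transcription factors of the pathway. A peak was assigned to a gene when it overlapped the gene body or the 5 kb on either side, here called the gene window. A peak further away was assigned as distal when it lay within 100 kb of the gene body and its nearest protein-coding start site belonged to that gene.

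H3K4me1 is histone H3 with 1 methyl group on lysine 4, a mark found at enhancers and beside promoters, whether or not they are in use. CUT&Tag, which uses an antibody-guided transposase to cut out marked DNA for sequencing, was run on freshly isolated cells of 3 whole whisker pads of B6/J2 mice at embryonic day 12, titled pads 1, 2 and 3. A further 3 samples made with control IgG were not analysed here, so no background stands beside the values, and no treatment or genotype was compared. The source name of pads 2 and 3 is adult kidney, against their titles; all 10 genes taken as facial mesenchyme markers carried a peak in every pad, beside 15.5% of all protein-coding genes. Of 10 adult kidney markers 7 carried none in any pad, near the 71.2% of all protein-coding genes without one, and Slc12a1 and Cubn carried one in all 3.

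Hedgehog ligands are secreted proteins that bind Patched 1 on the receiving cell. Without ligand, Patched 1 keeps Smoothened inactive; with ligand, Smoothened becomes active, and the Gli factors turn from repressors into activators of transcription. In developing hair and whisker follicles Shh is made by the epithelial placode, and the mesenchyme beneath it responds by expressing Gli1 and Ptch1.

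The lists held 16788, 12969 and 13998 peaks in pads 1, 2 and 3, and their signal summed to 822360552, 985881531 and 744342185. The total signal of a peak adds up the fragment pileup at each of its bases and is not scaled to depth, so each peak is given below by its percentile, the share of peaks in the same list with an equal or lower total signal. Reads per library cannot be counted from peak lists and were not measured here. The authors kept the top 1% of signal blocks in each list. The lack of a peak therefore does not show that the mark was lacking. The pads hold mixed cells, so fewer marked cells and less mark per cell cannot be told apart.

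The 9 genes carried a peak in their window in 9, 8 and 7 cases in pads 1, 2 and 3. In all 3 pads a peak was found for 7 of them, Ptch1, Smo, Hhip, Gas1, Boc, Gli2 and Gli3, beside 15.5% of all protein-coding genes. Longer genes are more often hit, and the share was 8.35% for genes under 20 kb, 16.5% for those of 20 to 100 kb and 46% for those over 100 kb. Among the members under 20 kb, Gas1 had a peak in every pad, whereas Shh and Gli1 had none in at least 1 pad. The 4 members of 20 to 100 kb, Ptch1, Smo, Hhip and Boc, and the 2 over 100 kb, Gli2 and Gli3, each had one in every pad. With peaks of the 3 pads merged where they overlapped, the members held 60 regions, of which 37 (61.7%) were present in all 3 pads, beside 46.3% of all 19251 merged regions. By the place of the highest pileup in the pad where a region had its highest percentile, 36 regions lay in introns, 2 in exons and 22 between genes.

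**Figure D1:**
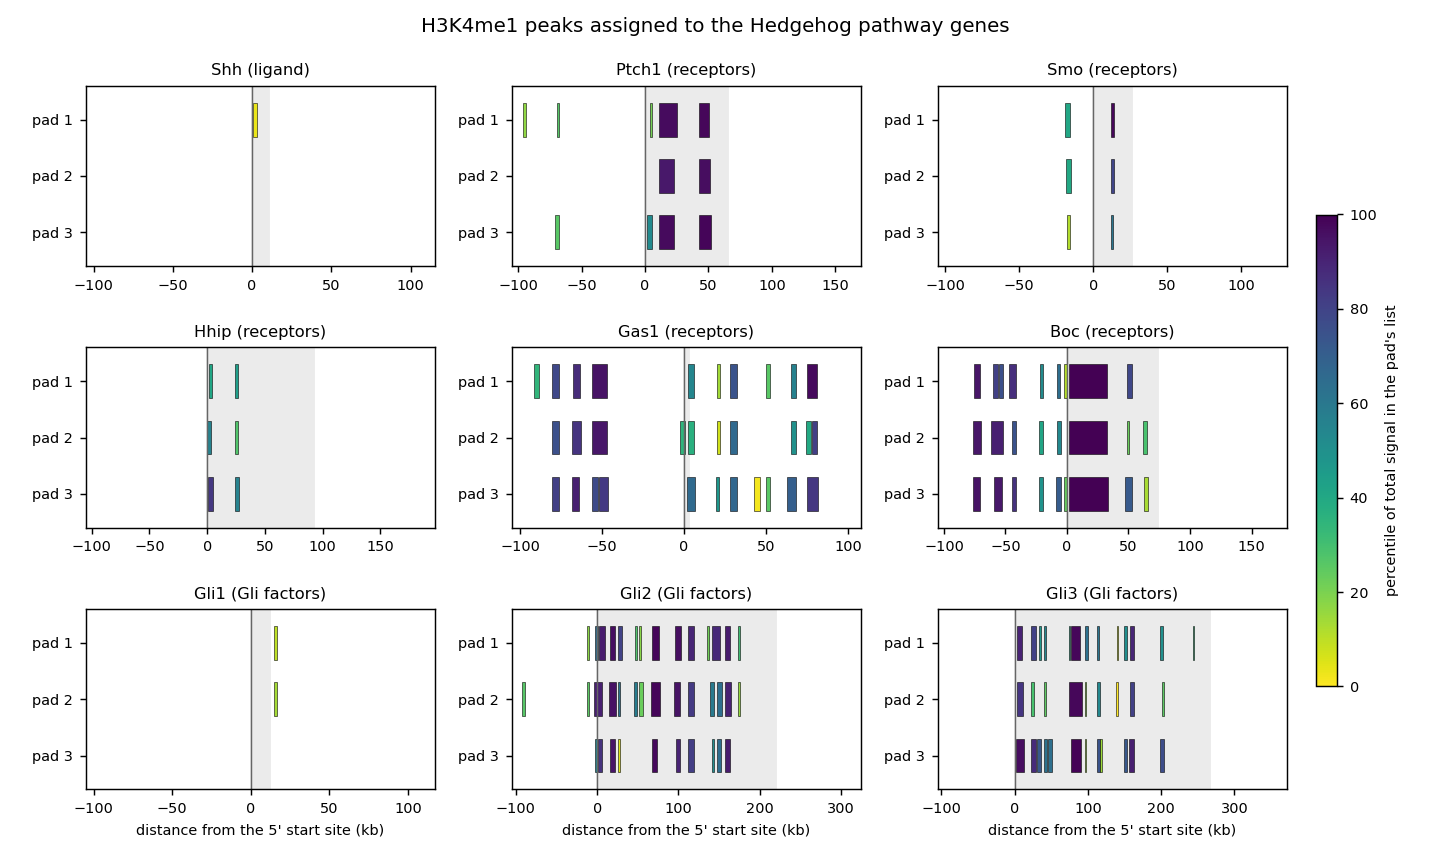
Peaks assigned to each gene in each pad, drawn along the distance from the gene's 5′ start site (kb) and coloured by the percentile of total signal, with the gene body shaded. Shh and Gli1 show 1 narrow, low peak in 1 and 2 pads, whereas Boc, Ptch1, Gli2 and Gli3 show wide, high peaks inside the gene at the same place in all 3 pads.

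The assigned peaks numbered 57, 48 and 50 in pads 1, 2 and 3, a mean of 51.7 ± 4.73 (SD, n = 3). Their median percentile was 63.2, 58.7 and 72.7, and their median length was 3437, 3596 and 4494 bp, against 2981, 3682 and 3352 bp over whole lists. Above the 90th percentile, which holds 10% of a list by construction, stood 14, 12 and 13 of them, or 24.6, 25 and 26%. These high peaks belonged to Ptch1, Gas1, Boc, Gli2 and Gli3 in every pad, and to Smo in pad 1. Those of Gas1 were all distal.

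The ligand gene Shh (chromosome 5, 28456815 to 28467256, minus strand, 10.4 kb) encodes Sonic hedgehog. Its window was covered by peaks over 12.2% of its bases in pad 1 and over 0% in pads 2 and 3. The peak of pad 1 had its highest pileup in an intron and ran from 0.44 to 2.93 kb past the start site, at chr5:28464328-28466816. It was 2489 bp long with a total signal of 14740 and a highest pileup of 30, and with a percentile of 3.51 it stood near the lower limit of its list, whose weakest peak had 14265. Pads 2 and 3 kept no peak below 24247 and 19337, so a peak of that total would not have been listed there. Shh therefore had no region in more than 1 pad. Shh is made by epithelial cells, and of 10 surface ectoderm markers 7, 7 and 3 carried a peak in pads 1, 2 and 3. In all 3 pads a peak was found for 3 of the 10, Trp63, Grhl2 and Grhl3, beside 15.5% of all protein-coding genes. No pad had one for 3 of the 10, Epcam, Krt14 and Esrp1, beside 71.2% of all protein-coding genes. The part of the share of epithelium in the Shh result was not tested.

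The surroundings of Shh were poor in peaks as well. Outside the window, 108 kb had Shh as the nearest start site within the 100 kb limit, and no pad had a peak there. The nearest peak outside the window was 1638 kb away in pad 1, 1425 kb in pad 2 and 147 kb in pad 3. In pads 2 and 3 these peaks were weak, with percentiles of 3.72 and 3.87. The stretch without peaks around Shh, leaving aside its own peak, was 4286, 4136 and 1572 kb long. It held 30, 29 and 8 protein-coding genes, Shh included. It ranked 74th, 89th and 300th by length against 16783, 12968 and 13997 stretches between peaks. In pad 1 the peak of Shh itself splits this stretch, so the rank there holds only for the joined stretch. Within 500 kb on each side, Shh had 1, 0 and 1 peaks, counted by any overlap. Counted by the middle of each peak, the median gene had 7, 5 and 5, and 22.5, 26 and 26.6% of genes had at most 1. The distant limb enhancer of Shh is a textbook case of control from afar, and the assignment used here stops at 100 kb. Between 100 and 500 kb from the gene, however, 0 peaks had Shh as their nearest start site in each pad. Upstream of Shh, the nearest peak was 1638, 1425 and 1425 kb away in pads 1, 2 and 3.

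Of the receptor genes, Boc (chromosome 16, 44485049 to 44558897, minus strand, 73.8 kb), which encodes a co-receptor that binds the ligand together with Patched 1, carried the strongest peak of the pathway. Of its window 44.2, 42.7 and 50.8% was covered in pads 1, 2 and 3, a mean of 45.9% ± 4.27 (SD, n = 3), a value that 98.9% of protein-coding genes did not exceed. A single peak from 1.43 to 33.1 kb past the start site, 31.7 kb long when merged, held most of it. Its total signal was 902140, 1066996 and 803622, and its percentile was 99.91, 99.85 and 99.96. By total signal it ranked 16th, 20th and 6th in the 3 lists, and by length 14th, 16th and 4th. The peak did not reach the Boc start site, which was covered in pad 3 alone, by a weak peak with a percentile of 23.5. A further 5 of the 6 other Boc regions present in all 3 pads lay upstream of the gene, between -76.7 and -4.74 kb. The outermost of these had percentiles of 94.2, 94.0 and 95.1. The window also overlaps Cfap44.

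Ptch1 (chromosome 13, 63508328 to 63573598, minus strand, 65.3 kb) encodes Patched 1, the receptor and itself a target of the pathway. Peaks covered 32.1, 27.4 and 33.6% of its window, a mean of 31.0% ± 3.26 (SD, n = 3). A pair of regions inside the gene made up most of this, from 11.01 to 25.4 kb and from 42.4 to 52.0 kb past the start. The first had percentiles of 97.2, 93.4 and 97.5 and the second of 98.2, 96.6 and 98.6, so both were high in every pad. The highest pileup lay in an intron for the first in all pads, and for the second over an exon in pads 1 and 2 and in an intron in pad 3. The second lies toward the 3′ end, and its nearest start site is that of Fancc. None of the 5 start sites of Ptch1 was covered in any pad. The other 3 Ptch1 regions were missing from pad 2, and the highest percentile among them was 52.5.

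Gas1 (chromosome 13, 60174405 to 60177365, minus strand, 2.96 kb) encodes a membrane-anchored co-receptor and had a different layout, with most of its peaks outside the window. In pads 1, 2 and 3 it had 1, 2 and 1 peaks in the window and 9, 8 and 10 distal ones. All 12 merged regions had their highest pileup between genes, and 8 of them were present in all 3 pads. They stood on both sides of the gene, from -91.6 to 81.5 kb, in a stretch of 190 kb with no nearer start site, or 4.74 distal peaks per 100 kb on average. The same density was 6.45 for Smo, from 1 peak per pad in a short stretch, 6.43 for Boc, 1.05 for Ptch1 and Gli2 each, and 0 for Shh, Hhip, Gli1 and Gli3. The region with the highest mean percentile, 90.9 ± 6.41 (SD, n = 3), lay from -55.9 to -46.6 kb, with percentiles of 95.2, 94.0 and 83.5. The strongest single peak differed between pads. Its highest pileup lay at 79.9 kb in pad 1, with a percentile of 97.4, at -49.9 kb in pad 2 and at -65.0 kb in pad 3. Between 100 and 500 kb from the gene a further 10, 10 and 11 peaks had Gas1 as their nearest start site. The Gas1 window was covered over 26.4, 49.3 and 39.6%, a mean of 38.4% ± 11.5 (SD, n = 3). Of the 2 Gas1 start sites 1 was covered, in pad 2 alone, by a peak with a percentile of 34.8. The coverage of this short gene depended on the flank and on weak peaks. It was 22.5% over the gene body alone, 21.7% with 10 kb and 15.99% with 20 kb on each side. When the weaker 50% of each list was dropped, it was 22.004% ± 20.2 (SD, n = 3) in the window. Both window peaks of pad 2, at percentiles of 36.6 and 34.8, were then lost, which left that pad uncovered.

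Hhip (chromosome 8, 79965851 to 80058006, minus strand, 92.2 kb) encodes a membrane protein that binds and sequesters Hedgehog ligands. It had 2 peaks in each pad and no distal one, which together covered 4.90, 5.60 and 8.14% of the window (6.21% ± 1.70, SD, n = 3). The region beside the start site, from -0.20 to 5.25 kb, had percentiles of 41.0, 55.9 and 83.7 and reached the start in pad 2 alone. The second, from 24.1 to 27.6 kb, had 44.1, 27.6 and 56.2. Both were highest in pad 3, and with the weaker 50% of each list dropped mean coverage was 3.82%.

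Smo (chromosome 6, 29735503 to 29761365, plus strand, 25.9 kb) encodes Smoothened, the signal transducer that Patched 1 holds inactive. It had 1 peak in the window and 1 distal peak in each pad, and its coverage was the least variable, 4.56, 4.31 and 4.07% (4.31% ± 0.248, SD, n = 3). The peak in the window, from 12.2 to 13.8 kb past the start, had its highest pileup in an intron. It was short, at 1636, 1546 and 1458 bp, and stood at a percentile of 5.99, 0.979 and 0.657 by length. Its highest pileup was 451, 179 and 72, and its percentile by total signal was 98.2, 79.5 and 61.2, so its strength differed widely between pads. By total signal per base it stood at a percentile of 99.8, 99.8 and 99.3, and thus was narrow and tall in all 3 pads, as the plot of length against pileup shows. Of this region 96.6% is marked as repeat in the genome, and 26.0% of its 51-base words, the read length of the study, occur at more than 1 place in GRCm38, up to 39 places. The median over the 60 regions was 0.502%, and only 1 other region, of Gli3, was above 10%. With regions above 10% left out, Smo had no peak in its window and 6 members in place of 7 had one in all 3 pads. The part of the repeat in the height of the peak was not tested. The summit sequence is shown to let the repeat be read; it was chosen after its values were seen and comes from GRCm38, chr6:29748315-29748514, plus strand.
Smo summit: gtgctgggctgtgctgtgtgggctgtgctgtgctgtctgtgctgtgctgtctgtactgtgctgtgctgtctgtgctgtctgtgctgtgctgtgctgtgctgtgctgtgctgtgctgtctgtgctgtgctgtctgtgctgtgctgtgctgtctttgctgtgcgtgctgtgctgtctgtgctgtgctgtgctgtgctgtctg

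**Figure D2:**
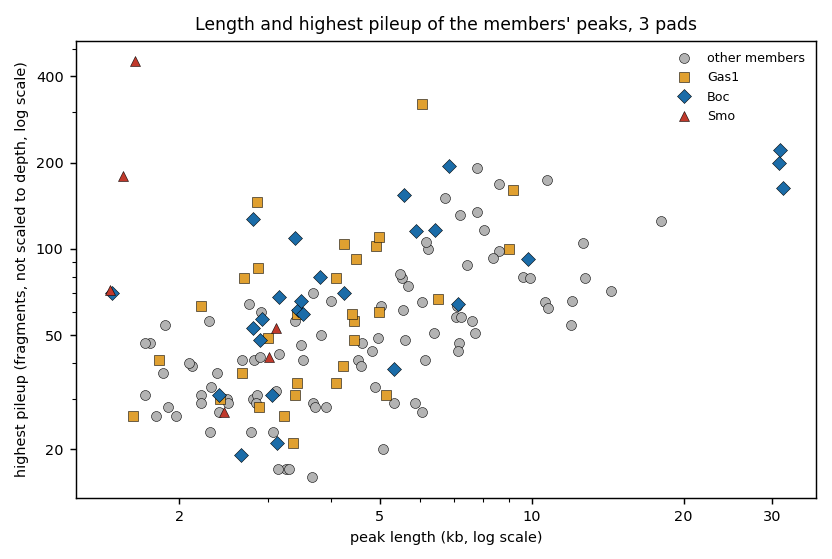
Length (kb) and highest pileup (fragments, not scaled to depth) of every peak assigned to the 9 genes in the 3 pads, both on log scales. The 3 peaks in the Smo window lie at 1458 to 1636 bp, with pileups of 72 to 451, and the 3 longest peaks, of 30.9 to 31.4 kb, belong to Boc. The Smo peak of pad 3, at 1458 bp and 72, lies beside a Boc peak of pad 2, at 1473 bp and 70.

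The distal Smo region, from -18.8 to -15.1 kb, had percentiles of 40.6, 39.9 and 11.6 and its highest pileup over an exon of Tspan33, which lies beside Smo. A stretch of only 15.5 kb outside the Smo window has Smo as its nearest start site, so distal peaks had little room there, and with 20 kb on each side coverage was 6.69%.

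Gli1 (chromosome 10, 127329882 to 127341974, minus strand, 12.1 kb) encodes an activator that is itself induced by the pathway and often serves as its readout. Its window was covered over 8.92, 8.40 and 0% in pads 1, 2 and 3 (5.77% ± 5.005, SD, n = 3), by 1 peak that was absent from pad 3; the mean without that pad was 8.66%. This peak lay beyond the 3′ end of Gli1, from 14.6 to 16.7 kb past the start site, inside the neighbouring gene Arhgap9, whose start site is also the nearest. Its percentiles were 9.83 and 13.4, so it was weak in both pads. Without the 5 kb on either side, Gli1 was covered over 0% in every pad. Only 1.3 kb outside its window would have been assigned to it.

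Gli2 (chromosome 1, 118834132 to 119053619, minus strand, 219 kb) encodes the main activator downstream of Smoothened. It had 13, 12 and 10 peaks in the window and 1, 2 and 0 distal ones, and coverage was 33.1, 33.7 and 21.3% (29.4% ± 6.97, SD, n = 3). The strongest region, from 66.5 to 77.3 kb past the start, had percentiles of 98.5, 98.7 and 97.7. A further 4 of the 8 regions in all pads had mean percentiles of 89.6 to 95.6, from the start site to 164 kb into the gene. The region at the start, from -3.71 to 9.58 kb, covered both Gli2 start sites in pads 1 and 2 and neither in pad 3.

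The Gli2 promoter is shown because it was the one of the 6 member promoters in the RefSeq table (GRCm38.p6) whose 300 bases, 250 before to 50 after the start, were covered in full in 2 pads, over 100, 100 and 0% in pads 1, 2 and 3. It lies at chr1:119053570-119053869, minus strand, has a GC content of 67.3% and holds 28 CG dinucleotides, in capitals.
Gli2 promoter: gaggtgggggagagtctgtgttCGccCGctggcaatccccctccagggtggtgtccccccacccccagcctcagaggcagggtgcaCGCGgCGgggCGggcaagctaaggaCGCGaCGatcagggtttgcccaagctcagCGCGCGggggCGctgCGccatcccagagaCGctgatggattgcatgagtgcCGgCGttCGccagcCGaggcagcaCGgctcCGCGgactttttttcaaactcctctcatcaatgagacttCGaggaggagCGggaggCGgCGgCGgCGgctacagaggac
Of the other members' promoters, that of Hhip was covered over 0, 82.3 and 0% and that of Gas1 over 0, 100 and 0%. Those of Ptch1, Smo and Gli3 were covered over 0% in all 3 pads, and those of Shh, Boc and Gli1 were not in the table.

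Gli3 (chromosome 13, 15463235 to 15730026, plus strand, 267 kb) encodes the main repressor of the family. It had 13, 9 and 12 peaks in the window and no distal one, and coverage was 21.0, 18.4 and 24.7% (21.4% ± 3.13, SD, n = 3). All 14 regions had their highest pileup in introns. The strongest, from 73.8 to 91.8 kb past the start and 18.01 kb long, had percentiles of 98.2, 98.2 and 99.5. By mean percentile this was the strongest region of the Gli genes, at 98.6 against 98.3 for that of Gli2. In pads 1 and 2 the Gli2 region stood higher, at 98.5 and 98.7 against 98.2 and 98.2. The sequence at the highest pileup of the Gli3 region is given, taken from pad 3, where its percentile was highest. In pads 1 and 2 its highest pileup lay elsewhere, 79.5 and 79.03 kb past the start, outside these letters. The sequence is 200 bases of GRCm38 on the plus strand, chr13:15545017-15545216, in an intron 81.9 kb past the start site. It does not hold the letters GACCACCCA of the GLI motif or their reverse complement TGGGTGGTC, so no letter is in capitals.
Gli3 summit in pad 3: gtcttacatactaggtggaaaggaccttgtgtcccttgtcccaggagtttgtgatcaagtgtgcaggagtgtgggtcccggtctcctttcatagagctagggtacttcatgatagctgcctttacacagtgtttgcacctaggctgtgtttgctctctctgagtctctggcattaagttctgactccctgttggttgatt

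**Figure D3:**
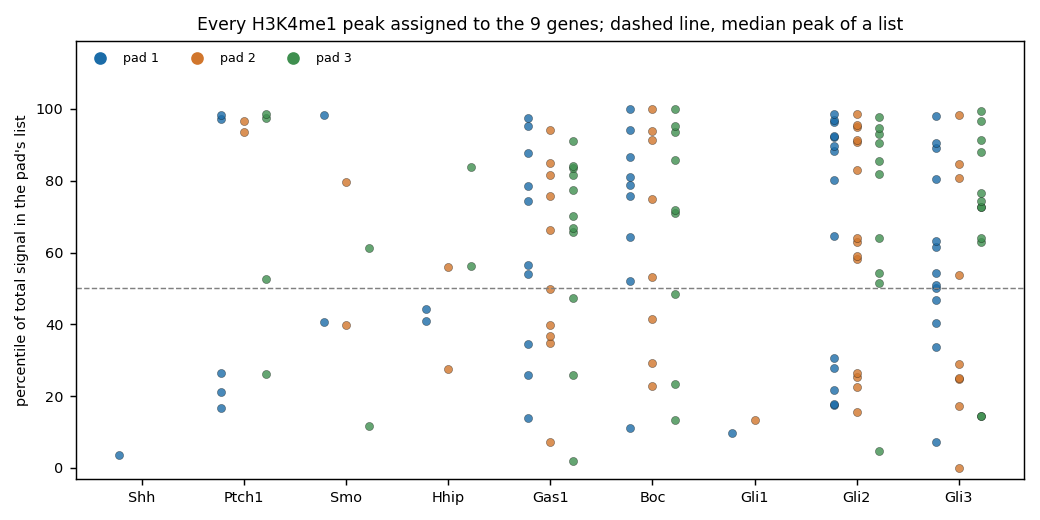
Percentile of total signal of every peak assigned to each gene, by pad, with the median peak of a list (50) as a dashed line. In every pad Ptch1, Gas1, Boc, Gli2 and Gli3 reach above 90, Gas1 by distal peaks alone. Hhip stays at 83.7 or below, and the single peaks of Shh and Gli1 lie at 3.51, 9.83 and 13.4. The highest peak is taken over unequal numbers of peaks, in pad 1 for example 14 for Gli2 and 2 for Hhip.

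Set in order of mean coverage, the members ran Boc, Gas1, Ptch1, Gli2, Gli3, Hhip, Gli1, Smo and Shh. The first 5 were at 18.4% or above in every pad, and the last 4 were at 12.2% or below in every pad. For Gas1 in pad 2 this rested only on peaks below the median of the list. Over all protein-coding genes the median was 0% and the 90th percentile 12.4%. Between neighbours in this order, the difference exceeded its spread over pads at 1 step, from Gli3 to Hhip, by 16.1, 12.8 and 16.5 points (15.2 ± 2.02, SD, n = 3). The other neighbours changed places between pads. Further apart in the order, Boc exceeded Ptch1 by 14.9 ± 2.55 points (SD, n = 3).

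**Figure D4:**
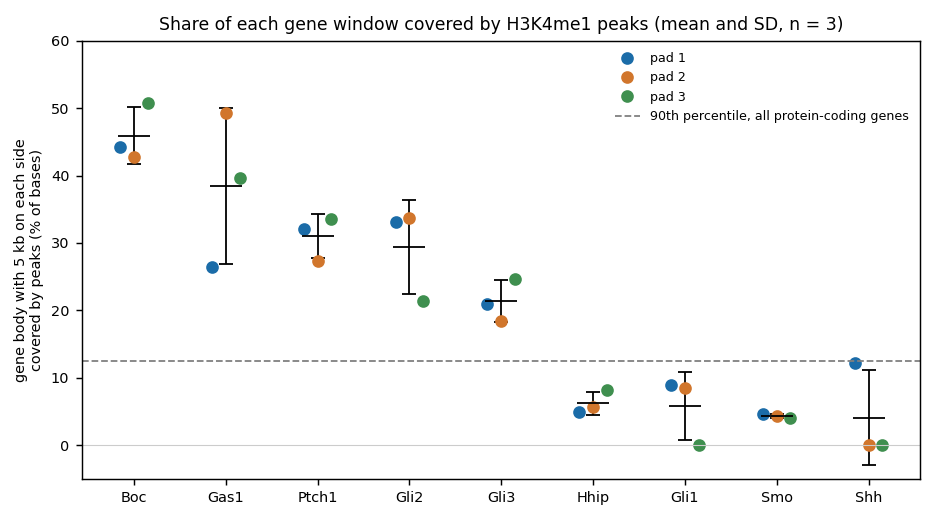
Share of each gene window (gene body and 5 kb on each side) covered by H3K4me1 peaks, in percent of bases. Points are pads, bars the mean and SD (n = 3), and the dashed line at 12.4% the 90th percentile of all protein-coding genes; 5 genes lie above it in every pad and 4 below it.

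By role, the mean coverage was 12.2, 0 and 0% for the ligand, 22.4, 25.9 and 27.2% for the 5 receptor genes and 21.0, 20.2 and 15.3% for the 3 Gli genes. The Gli mean was lower than the receptor mean in all 3 pads, by -1.43, -5.70 and -11.9 points (mean -6.34 ± 5.27, SD, n = 3). With 3 pads a two-sided exact sign permutation test cannot give a p below 0.25, so none is given. Without Gli1 the difference was 0.19 points and thus of the opposite sign, and without Boc it was -1.16 points. With 20 kb on each side it was -1.24 points, and without pad 3 it was -3.56 points, so the size of the gap depended on single genes, the flank and that pad. By share of a list's total signal, summed over assigned peaks, Boc held 1665, 1685 and 1809 ppm, Gli2 1498, 1688 and 1159, and Gli3 899, 789 and 1454. Gas1 had 819, 754 and 836 and Ptch1 619, 474 and 687. Smo, Hhip, Gli1 and Shh each had 335 or less in every pad.

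Coverage in pad 3 was the lowest of the pads for Gli2 and the highest for Gli3. Of the 14 regions of each gene, pads 1, 2 and 3 lacked 1, 1 and 6 for Gli2 and 2, 5 and 2 for Gli3. Against the mean of pads 1 and 2, Gli2 coverage was -12.1 points and Gli3 coverage 4.95 points different in pad 3. Gli2 was above Gli3 in pads 1 and 2 and below it in pad 3. The GC content of the gene bodies is 49.6% for Gli2 and 41.5% for Gli3, and their 14 regions each had a median of 50.03 and 42.3%. As a log2 ratio of the shares of signal in regions present in all 3 pads, pad 3 over pad 2, the median was -0.22 for Gli2, with 2 of 8 regions higher in pad 3, and 0.85 for Gli3, with 8 of 8 higher. For pad 1 over pad 2 the median was -0.02 for Gli2 and 0.22 for Gli3. For pad 3 over pad 2, all such regions in the genome, in 10 bins of GC content, ran from a median of 0.98 at 41.4% GC to -0.84 at 54.5% GC. Against the median of their own bin, the 8 Gli2 regions differed by -0.78 to 0.32, with a median of 0.01, and the 8 Gli3 regions by -0.62 to 0.97, with a median of -0.01, so single regions lay on both sides of it. The 6 member regions absent only in pad 3 had a median GC content of 50.7%, and the 6 absent only in pad 2 one of 45.2%. The part of GC content in the pad 3 values was not tested.

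**Figure D5:**
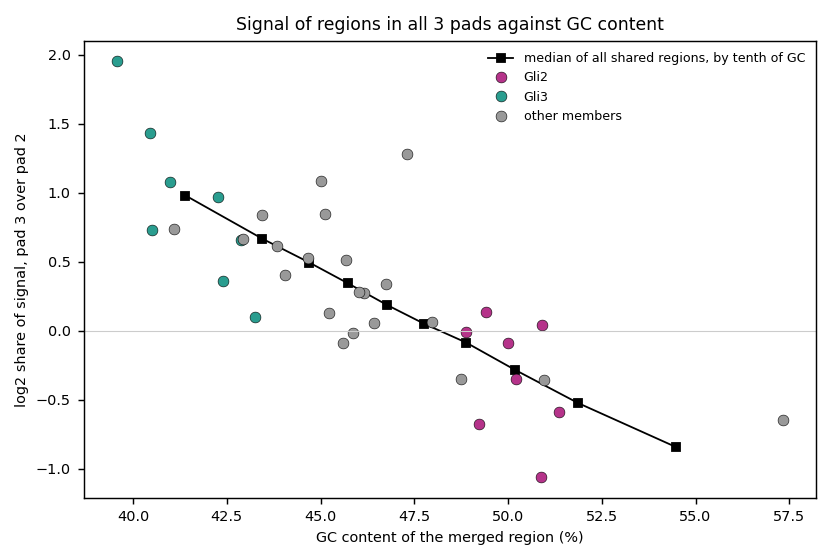
GC content (%) of the member regions present in all 3 pads against the log2 ratio of their shares of signal, pad 3 over pad 2. Squares joined by a line are medians of all such regions in each of 10 bins of GC content, falling from 0.98 to -0.84; Gli3 regions lie at low GC and above 0, and 6 of the 8 Gli2 regions lie at high GC and below 0.

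Since the Gli factors bind DNA at a well-known motif and the pathway acts on its own genes, the letters GACCACCCA (GLI motif) were searched on both strands. It was present in 3 of the 37 member regions found in all 3 pads (8.11%), beside 6.29% of all 8916 such regions searched, and in 0 of the 37 windows of 200 bases at the same kind of summit, in the pad of highest percentile, beside 0.280%. Of promoters in the RefSeq table, 0.253% held it, and none of the 6 of the members did. The LEF/TCF motif CTTTGAT or ATCAAAG was present in 24 of the 37 regions (64.9%), beside 57.1%. Neither motif contains the other. Long regions hold more matches by length alone, and a match is a description of letters, not a site. The 3 GLI matches are shown with their surroundings on the plus strand, 100 bases of GRCm38 each, with the motif in capitals; they were chosen after their values were seen.
Smo -16.4 kb, chr6:29719027-29719126: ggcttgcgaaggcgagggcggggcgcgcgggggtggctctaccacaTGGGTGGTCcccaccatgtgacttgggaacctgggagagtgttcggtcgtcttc
Boc 6.74 kb, chr16:44552110-44552209: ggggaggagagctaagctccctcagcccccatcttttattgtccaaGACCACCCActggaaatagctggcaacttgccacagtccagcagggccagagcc
Gli2 7.07 kb, chr1:119046500-119046599: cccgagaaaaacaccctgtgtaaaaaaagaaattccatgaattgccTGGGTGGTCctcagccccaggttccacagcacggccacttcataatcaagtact
The Smo match lay in the distal region beside Tspan33. The Boc match lay in an intron, in the first part of the 31.7 kb peak, and both were covered in 3 pads. The Gli2 match lay in the region at the start of the gene and was covered in 1 pad. Ptch1, Hhip, Gas1 and Gli3 had none in their regions present in all 3 pads.

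Further pathway genes were taken from a list of 22, which covers ligand release, co-receptors, transduction and targets. A peak in the window was found for 16, 15 and 10 of them in pads 1, 2 and 3, and in all 3 pads for 9 of 22, beside the 15.5% of all protein-coding genes given above. Leaving out pad 3 raised this to 15, so pad 3 decided 6 of the genes, and 20 kb instead of 5 kb on each side raised it to 14. In all 3 pads were 1 of 5 genes of ligands and their release, 2 of 3 receptors and co-receptors, 3 of 7 of signal transduction and 3 of 7 targets. Evc and Evc2, counted as 2 of the 3 transduction genes, are neighbours and had the same strongest peak in every pad. By the mean percentile of the strongest peak in the window, the highest were Disp1 (99.0 ± 0.656), which encodes the protein that releases ligand from the producing cell, and Osr2 (91.1 ± 5.79), a transcription factor of the facial mesenchyme. Then followed Bcl2 (90.3 ± 4.18), an inhibitor of apoptosis, Cdon (88.5 ± 10.9), a co-receptor related to Boc, and Sufu (86.7 ± 2.47), which restrains the Gli factors (SD, n = 3). Disp1 had 11, 7 and 7 peaks and Cdon 8, 4 and 4. No peak in any pad was found for 6 of the 22, beside 71.2% of all protein-coding genes. These were Ihh, another ligand, Scube2, which helps release ligand, Lrp2, an endocytic receptor, and Kif7, Gpr161 and Spop of the transduction group.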

How the data were processed

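CUT&Tag peak lists were analysed for 3 H3K4me1 samples, grouped by title. Per the submitters' processing notes, Bowtie2 2.3, SAMtools 0.1.19, bedtools and SEACR 1.3 were used with mm10. The authors called peaks in each sample separately with SEACR in stringent mode, without IgG, and kept the top 1% of blocks. The deposited signal columns are pileup sums and maxima per peak, not scaled to depth. The study states 1 nominal depth for its libraries, but peak lists carry no read totals, and neither the depth reached nor the counting error was measured here.

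Genes came from GENCODE vM21 on GRCm38, with 54050 protein-coding transcript start sites, and offsets count from the 5′ start of the gene. Of all peaks, 0 ended beyond a GRCm38 chromosome. Between pads, 4 to 6 peaks were identical in position. Peaks overlapping by 1 bp or more were merged into regions with Python 3.11.15 and NumPy 2.4.6. The assignment and merging were checked on made-up peaks. Results are descriptions over pads and no test was run. Nothing in the labels says that the pads came from separate litters, so the spread may be partly technical.

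The members and lists were chosen with earlier results of these data known. Named were all members, neighbouring genes in their windows, and of the wider list those without peaks and the 5 with the highest mean percentile. Sequences are from GRCm38, and promoters from RefSeq. Summit sequences other than those of Smo and Gli3 are not reported here.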

Additional observations from a re-analysis of the deposited data

How the results depend on the processing

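Counts were taken as moved when they changed by over 1.5 times, and other values when they changed by over 1 SD over pads. Of 130 alternative values for 15 results, 104 stayed within these limits, 25 moved and 1 changed sign. The number of members with a peak in all 3 pads was 7 and ranged from 5, with the stronger 50% of each list, to 8, without pad 3. Their peaks per pad fell from 51.7 to 34.3 with the stronger 50%, and ran from 40.7, with 10000 peaks per list, to 64, with a limit of 500 kb, under the others. Mean coverage, 20.7%, was 20.04, 17.6 and 15.2% with 0, 10 and 20 kb on each side, 16.2% when the weaker 50% were dropped and 18.6% for 10000 peaks per list. The Gli genes minus the receptors, at -6.34 points, became 0.19 without Gli1, and ran from -9.01 to -1.16 under the others. Of the wider list, 9 genes became 14 with 20 kb on each side, and 9 to 15 when 1 pad was left out. Leaving out single genes or repeat-rich regions was chosen after seeing the data. No paired analysis was possible because replicate numbers are shared only with control IgG, which is not analysed here. Depth, not measured here, limits what a missing peak means.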
